A study of Mus musculus with 16 samples.

Results

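The loci of 10 genes that regulate the primitive streak and the mesoderm were described in the accessible chromatin of mouse embryonic stem (ES) cells. The genes were T (Brachyury), Eomes, Mixl1, Gsc, Tbx6, Mesp1, Msgn1, Hand1, Hand2 and Evx1. A region of the merged ATAC-seq list belonged to a locus when its centre lay in the gene body or within 100 kb of a transcription start site (TSS) of the gene in the GENCODE M21 annotation of mm10. This rule took 162 of the 81132 regions of the list, or 0.200%, and no region fell in more than 1 of the 10 loci.

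The study asked how differences in SOX2 and OCT4 level between ES cells relate to chromatin accessibility and to later fate. ATAC-seq, which cuts and tags open chromatin with the Tn5 transposase, was run on 12 libraries of the SBROS line, with 3 biological replicates in each of 4 groups. SBROS is a single clone of CGR8 background in which both SOX2 alleles carry a SNAP-tag, 1 OCT4 allele carries a HALO-tag, and the endogenous Sox1 and Brachyury genes carry fluorescent reporters. G1 cells were sorted as SHOH (SOX2 high, OCT4 high), SHOL (SOX2 high, OCT4 low), SLOH (SOX2 low, OCT4 high) and SLOL (both low). All groups grew in serum with LIF, 3 µM CHIR99021 (a GSK3 inhibitor that activates Wnt signalling) and 0.8 µM PD184352 (a MEK inhibitor), and all were stained with 100 nM of the HALO dye and 12 nM of the SNAP dye. The merged list pools all 12 libraries and holds positions without a level, so each value below describes the pooled list, with no value per group, replicate or depth. A gene without a listed region is therefore a gene at which no peak entered the list. Because the T locus of this line holds a reporter while reads were aligned to the unmodified reference, reads from the inserted sequence had no place in that reference. The same limit applies to Sox1, Sox2 and Pou5f1 (the OCT4 gene), which are in gene lists compared with the members below.

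The primitive streak forms at the posterior side of the epiblast under Wnt, Nodal and BMP signals, and cells that pass through it become mesoderm or definitive endoderm. T-box, homeobox and basic helix-loop-helix (bHLH) transcription factors are switched on there in sequence, and most of them are silent or very low in self-renewing ES cells. Wnt signals act on several of these genes through TCF/LEF factors, and Nodal signals act through SMAD proteins with partners such as FOXH1.

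Promoter sequences of 8 of the 10 genes were read from the RefSeq promoter table (GRCm38.p6), from 250 bases before to 50 bases after the gene start, and Mixl1 and Hand1 had no entry. Motifs of 5 kinds were searched on both strands, the octamer ATGCAAAT bound by OCT4, the SOX motif CCATTGT or CCTTTGT, the TCF/LEF motif CTTTGAT or CTTTGAA, the T-box motif AGGTGTGA and the FOXH1 motif TGTNNATT. Among all 32851 promoter windows of this length, 1.74% held the octamer, 9.28% SOX, 8.65% TCF/LEF, 1.28% T-box and 12.2% FOXH1 letters. The SOX form CCTTTGT shares the run CTTTG with the TCF/LEF motif, but no matches of different kinds overlapped in the 162 regions. A match describes letters and not binding. The 6 windows shown either held bases of a listed region or held a motif, and capitals mark motif matches.
T, chr17:8434173-8434472, plus strand: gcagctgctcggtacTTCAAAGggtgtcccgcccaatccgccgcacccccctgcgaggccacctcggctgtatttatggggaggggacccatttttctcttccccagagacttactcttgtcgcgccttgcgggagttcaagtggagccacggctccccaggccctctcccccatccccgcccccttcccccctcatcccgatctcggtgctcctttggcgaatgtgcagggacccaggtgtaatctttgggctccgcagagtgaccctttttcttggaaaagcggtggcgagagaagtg
Gsc, chr12:104473187-104473486, minus strand: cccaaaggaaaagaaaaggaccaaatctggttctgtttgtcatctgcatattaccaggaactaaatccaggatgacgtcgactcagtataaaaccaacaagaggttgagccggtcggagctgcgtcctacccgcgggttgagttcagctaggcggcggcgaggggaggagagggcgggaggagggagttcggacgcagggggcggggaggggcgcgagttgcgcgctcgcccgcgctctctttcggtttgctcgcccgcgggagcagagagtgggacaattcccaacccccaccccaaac
Hand2, chr8:57320733-57321032, plus strand: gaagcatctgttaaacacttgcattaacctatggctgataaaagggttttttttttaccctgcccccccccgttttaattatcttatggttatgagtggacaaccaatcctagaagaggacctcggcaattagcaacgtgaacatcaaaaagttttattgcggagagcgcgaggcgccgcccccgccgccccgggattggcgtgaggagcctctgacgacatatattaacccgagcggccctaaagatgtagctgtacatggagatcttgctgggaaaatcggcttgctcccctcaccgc
Mesp1, chr7:79793541-79793840, minus strand: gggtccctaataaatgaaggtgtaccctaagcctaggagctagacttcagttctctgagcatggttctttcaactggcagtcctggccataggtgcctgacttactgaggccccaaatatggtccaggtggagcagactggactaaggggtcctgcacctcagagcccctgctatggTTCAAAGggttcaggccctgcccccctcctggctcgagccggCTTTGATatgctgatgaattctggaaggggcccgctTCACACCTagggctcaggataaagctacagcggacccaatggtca
Msgn1, chr12:11208899-11209198, minus strand: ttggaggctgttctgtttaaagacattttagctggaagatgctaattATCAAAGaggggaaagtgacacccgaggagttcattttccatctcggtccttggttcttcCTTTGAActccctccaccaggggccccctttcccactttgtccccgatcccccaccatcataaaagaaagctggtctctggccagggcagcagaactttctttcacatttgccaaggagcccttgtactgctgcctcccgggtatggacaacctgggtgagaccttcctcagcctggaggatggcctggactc
Evx1, chr6:52313248-52313547, plus strand: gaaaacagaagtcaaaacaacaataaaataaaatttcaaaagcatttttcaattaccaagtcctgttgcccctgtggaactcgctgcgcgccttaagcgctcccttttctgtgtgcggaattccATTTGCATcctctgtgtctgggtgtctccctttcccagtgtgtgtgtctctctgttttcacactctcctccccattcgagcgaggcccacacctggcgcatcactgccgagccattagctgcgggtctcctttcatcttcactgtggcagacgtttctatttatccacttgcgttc

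The windows of T, Gsc and Hand2 held accessible bases, with 300, 184 and 129 of 300 bases inside a listed region. The windows of Eomes, Tbx6, Mesp1, Msgn1 and Evx1 held 0. No share over all promoter windows is given for listed bases, so these counts are not a comparison with other genes. Of the 7 motif matches in the 8 windows, only the TCF/LEF letters of T lay in a listed region. The other matches were all in windows with 0 listed bases, so this count follows from the coverage of the windows. Mesp1 had TCF/LEF letters in 2 places and T-box letters in 1, Msgn1 had TCF/LEF letters in 2 places and Evx1 had the octamer, all outside the list. The windows of Eomes, Gsc, Tbx6 and Hand2 had no match. These windows follow RefSeq starts, whereas distances elsewhere are from GENCODE starts, and the RefSeq start differed from the GENCODE 5' end by 23 bp at Eomes, 94 bp at Gsc, 198 bp at Mesp1 and 24 bp at Msgn1 and by 0 at T, Tbx6, Hand2 and Evx1.

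Tbx6 and Msgn1 each had a single region with the gene as its closest TSS, and both regions were under 300 bases, so they are shown whole, in the direction of the gene. Both came from GRCm38.p6.
Tbx6 upstream region, chr7:126780080-126780325, plus strand: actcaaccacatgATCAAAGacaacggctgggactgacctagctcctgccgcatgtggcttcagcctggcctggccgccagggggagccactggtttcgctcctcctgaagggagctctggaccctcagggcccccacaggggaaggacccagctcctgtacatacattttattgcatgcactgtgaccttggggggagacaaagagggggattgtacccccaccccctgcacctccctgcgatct
Msgn1 gene body region, chr12:11208629-11208771, minus strand: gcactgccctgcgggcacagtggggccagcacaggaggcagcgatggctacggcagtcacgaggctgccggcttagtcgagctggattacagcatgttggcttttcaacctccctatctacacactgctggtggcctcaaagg

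The locus counts ran from 11 regions at Msgn1 to 20 at T, with a median of 17.5. Over all 21938 protein-coding genes, counted the same way, the median was 11.0 and the quartiles were 6.00 and 17.0. All 10 loci were at or above that median, and T, Eomes, Tbx6, Mesp1 and Evx1 were above the upper quartile. Fewer regions had the member as their closest TSS, and their number depended on which neighbours were counted. With start sites of all annotated genes it was 22 of the 162 regions (13.6%, 95% Wilson interval 9.14 to 19.7%), with a median of 1.00 per member and also 1.00 per protein-coding gene. With start sites of protein-coding genes only it was 72 of the 162 (44.4%, 37.0 to 52.1%), and over the whole list the medians became 7.00 per member and 2.00 per protein-coding gene. Eomes then had 18 closest regions, Hand2 14 and Gsc 11, while T kept a count of 8 and Mixl1 and Tbx6 of 1 each. Closest genes named below are those among all annotated genes. Wilson intervals here cover counting error only, and regions of a locus share their surroundings.

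**Figure D1:**
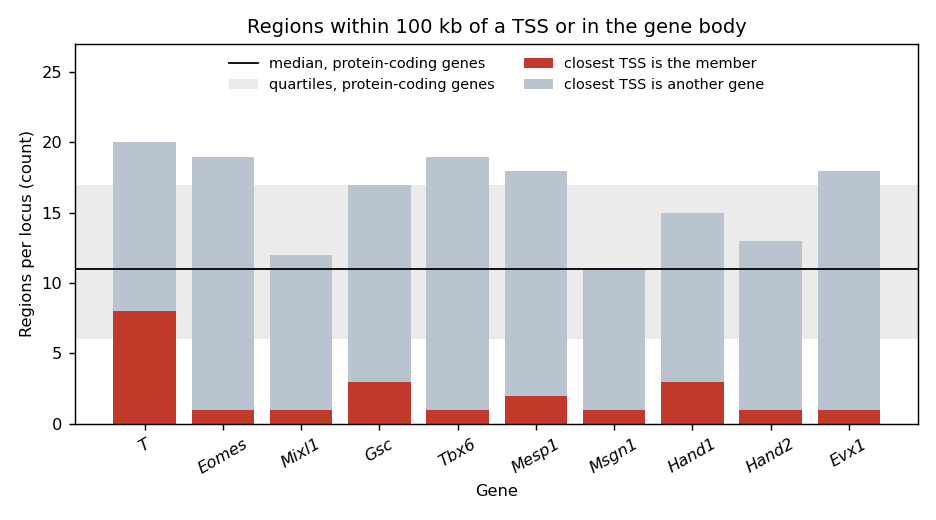
Regions per locus (count) for the 10 genes, split by whether the closest TSS is the gene itself (red) or another gene (grey-blue), with all annotated genes giving start sites. The black line and shaded band are the median and quartiles over protein-coding genes, and T has 8 red regions while each other gene has 1 to 3.

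A start site was covered by a listed region in 5 of the 10 genes (T, Eomes, Mixl1, Gsc and Hand2), against 61.4% of all protein-coding genes. A region was centred in the gene's own promoter, which reached from 1000 bp before a start site to 100 bp after it, in 2 of the 10 (T and Hand2), against 57.7% of protein-coding genes. The second count depends on the definition, because the regions of several members were centred inside the gene. With 1 kb taken to both sides of the TSS it was 7 of 10, against 68.1% of protein-coding genes, with 5 kb to both sides 10 of 10, against 75.4%, and with any base of a region in the promoter 5 of 10, against 66.5%. In 8 of the 10 genes a region overlapped the gene body, and Tbx6 and Hand1 were the exceptions. A region did so in 74.0% of all protein-coding genes and in 48.8% of the 6317 that fell in the members' range of length, 613 to 8074 bp.

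**Figure D2:**
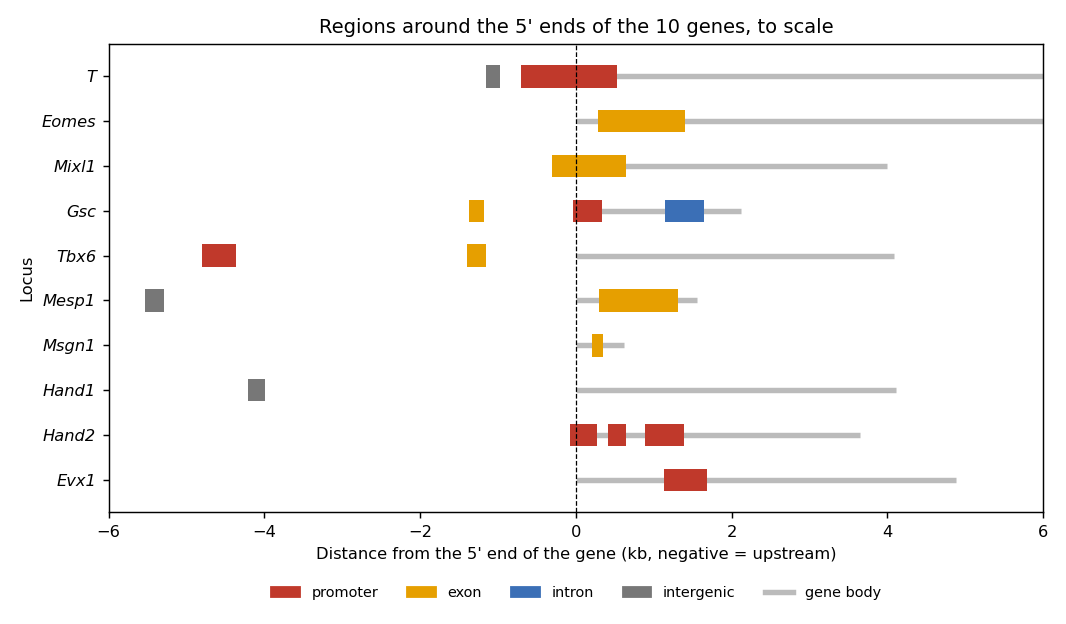
Regions within 6 kb of the 5' end of each gene, drawn to scale against distance in kb, with colour for the class at the region's centre and a grey line for the gene body. The regions of T, Mixl1, Gsc and Hand2 cross the 5' end, Eomes, Mesp1, Msgn1 and Evx1 have a region inside the gene short of the 5' end, and the gene bodies of Tbx6 and Hand1 hold none.

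Among the T-box genes, T drives streak and notochord development, and its locus held 20 regions, of which 8 had T as their closest TSS. With start sites of all annotated genes, 4.84% of protein-coding genes had 8 or more closest regions. With protein-coding start sites only, T also had 8 over the whole list, for which no such share is given. Eomes, Hand2, Gsc and Hand1 then had more, with 18, 14, 11 and 9. The start region of T, chr17:8433719-8434951, was 1233 bp wide with 63.7% GC, and it covered 2 of the 3 annotated start sites of the gene. It held TCF/LEF letters in 2 places and SOX letters in 1. RefSeq annotates a promoter of 659 bp that drives expression in the primitive streak, and this region covered all of it. Within that promoter RefSeq also annotates a LEF1 binding site of 27 bp, chr17:8434178-8434204. The TCF/LEF letters in capitals in the T sequence above lie at 8434188-8434194, inside this site. Binding of Sp1 and ETS variant 4 is annotated there at a site of 107 bp, and of Sp4 at a site of 64 bp. The start region covered these sites too.

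The remaining regions closest to T lay in 3 places. A narrow region of 175 bp was centred 1066 bp upstream of the 5' end. Regions 12.6, 13.5 and 18.7 kb upstream were in introns of T2, the neighbouring gene on the upstream side, and the one at 13.5 kb was 71.9% repeat-masked sequence. Downstream of the gene, intergenic regions lay 27.3, 29.4 and 34.5 kb from the 5' end, and no region was centred in the 37.2 kb after them. Among these regions, SOX letters were found once each at 13.5 kb upstream and 29.4 kb downstream, TCF/LEF letters once at 12.6 kb upstream and FOXH1 letters once at 34.5 kb downstream. Of the neighbours, T2 was the closest gene of 4 regions, and Prr18 and Pde10a, a phosphodiesterase gene, of 3 each. The gene body itself was largely unlisted, with 6.55% of its bases in a region, all at its start.

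Eomes is a T-box factor needed for definitive endoderm and for mesoderm migration out of the streak. It had 19 regions in its locus, and 1 had Eomes as its closest TSS. That region, chr9:118478501-118479610, was 1110 bp wide with 71.2% GC, centred in an exon 843 bp inside the gene. It covered the most downstream of 3 annotated start sites and began 289 bp after the 5' end of the gene. On the upstream side, intergenic regions of 876 and 723 bp lay 6.8 and 9.6 kb away and held TCF/LEF letters in 2 places and in 1, and the nearer also held FOXH1 letters. Their closest TSS was that of the small gene Gm22479, so the count of 1 does not include them.

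A region 72.0 kb upstream of Eomes, chr9:118405979-118406465, was centred in the promoter of the noncoding gene Platr11. It lay whole inside a cis-regulatory element of 570 bp for which RefSeq records, from CRISPR interference in mouse ES cells, positive regulation of Eomes and Platr11 and negative regulation of Vill. The region covered 85.4% of that element. Between it and the next region, 33.5 kb upstream of Eomes, no region was centred over 38.5 kb. On the other side, the antisense gene Gm33460 overlaps Eomes and was the closest gene of 4 regions, and Golga4, a Golgi coiled-coil gene, was that of 5.

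Tbx6 directs cells of the streak to paraxial mesoderm. Its locus also held 19 regions, but its start was 1158 bp from the nearest listed base and its gene body held none. The closest region is the first of the pair of whole regions shown above, centred 1281 bp upstream in an exon of Ypel3, and it holds TCF/LEF letters once. The locus is dense in genes, with start sites of 15 other protein-coding genes in the window, and 14 of the 19 regions were centred in promoters, none of them its own. Mapk3, the gene for ERK1, was the closest gene of 3 regions, and Aldoa, a glycolytic aldolase gene, Coro1a, Fam57b and Ino80e of 2 each. The high count at Tbx6 was therefore made up mostly of promoters of neighbours.

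**Figure D3:**
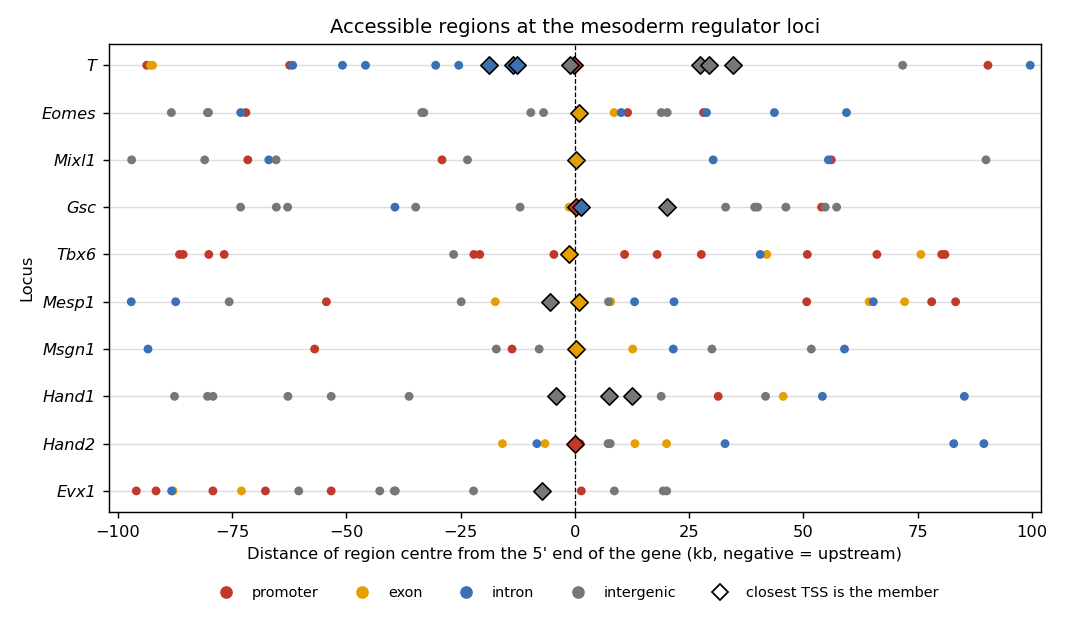
Centre of each of the 162 regions as distance in kb from the 5' end of its gene, 1 line per locus, with colour for the class at the centre and outlined diamonds where the gene itself is the closest TSS. The diamonds of T spread from 18.7 kb upstream to 34.5 kb downstream, and the Tbx6 line is mostly promoters (red).

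The homeobox genes differed in how their starts were covered. Mixl1, a paired-type factor of the streak, had 12 regions, and the only one closest to it was chr1:180696395-180697341, 947 bp wide with 66.2% GC. It crossed the single start site, was centred in an exon 166 bp inside the gene, and held TCF/LEF letters in 2 places and FOXH1 letters in 1. No other region lay within 10 kb, and the next ones were 23.5 kb upstream and 30.3 kb downstream. The noncoding gene Gm38293 was the closest gene of 4 regions and Lin9, a cell cycle regulator, of 3.

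Gsc marks the anterior streak and the organizer. Of its 17 regions, 12 were intergenic and 3 had Gsc as their closest TSS. The start region, chr12:104472995-104473370, was 376 bp wide with 71.3% GC. It crossed the TSS and was centred 148 bp inside Gsc, in an exon of Gsc that also falls in the promoter window of the neighbouring gene Gm10000. A second region of 496 bp lay in an intron 1392 bp from the start, and together they covered 39.2% of the gene body. The other closest region was intergenic, 869 bp wide and 20.2 kb downstream of the start, with FOXH1 and SOX letters once each. Gm24334 and Gm49732 were the closest genes of 7 and 5 regions.

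Evx1, an even-skipped type factor of the posterior streak, lies beside the Hoxa cluster. It had 18 regions, and the nearest listed base was 1083 bp from a start site. The only region closest to Evx1 was intergenic, 7.3 kb upstream and 626 bp wide. A region of 552 bp, chr6:52314635-52315186, lay in an intron of Evx1 but was centred in the promoter of the antisense gene Evx1os, 78 bp before its start. The octamer of the promoter sequence shown above was thus outside the listed regions. Most of the locus lay upstream, with 14 of 18 regions, and these included regions nearest to Hoxa7, Hoxa9, Hoxa10, Hoxa11 and Hoxa13, which were named after their values were seen. Gm27866 was the closest gene of 3 regions, and Evx1os, Gm8129, Hoxa7, Hoxa9 and Hoxa10 of 2 each.

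The bHLH genes covered the range from a mostly listed gene body to none. Mesp1 specifies early cardiac mesoderm, and 65.8% of its 1548 bp gene body was in a single region, chr7:79792475-79793493. This was the highest share among the 10 genes, for which the median was 15.0%, and in the 6317 protein-coding genes of the members' range of length the median was 0% and the upper quartile 11.3%. The region was 1019 bp wide with 66.6% GC and held FOXH1 letters once. It ended 295 bp short of the GENCODE start site and 97 bp short of the RefSeq start, and the TCF/LEF and T-box letters of the Mesp1 promoter were not in it. The other region closest to Mesp1 was intergenic, 5.4 kb upstream. Mesp2, the paralogue that acts in somite formation, had a region of 505 bp in an exon 470 bp from its own start. Among the 18 regions, Anpep, a peptidase gene, and Gm44705 were the closest genes of 4 each.

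Msgn1, a factor of the presomitic mesoderm, is the shortest of the genes at 613 bp and had the lowest count, 11 regions. Its single closest region, the second whole region shown above, was 143 bp wide and the narrowest in that locus. It was exonic, began 201 bp from the GENCODE start site and covered 23.3% of the gene. No motif was found in it, and the TCF/LEF letters of the promoter lay upstream of it. The widest region of all 162, at 1434 bp, was also in the Msgn1 locus, but it lay in an intron of Kcns3, 59.0 kb downstream. The noncoding genes 1700034J04Rik and 9530020I12Rik were the closest genes of 3 regions each.

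Hand1 and Hand2 are related factors of heart and limb development, and Hand1 also acts in extraembryonic mesoderm. Their loci had similar counts, 15 and 13, and differed at the gene. At Hand1 no region lay nearer than 3989 bp to the 5' end, and the 3 regions closest to it were intergenic, 4.1 kb upstream and 7.5 and 12.6 kb downstream of the 5' end, and the one at 7.5 kb held SOX and FOXH1 letters. Gm12244 was the closest gene of 5 further regions and 2010001A14Rik of 3. At Hand2, a region of 344 bp, chr8:57320904-57321247, crossed the start site, and regions of 236 and 493 bp followed 523 and 1137 bp inside the gene. The 3 regions covered 27.2% of the gene body, and the noncoding gene Hand2os1, which overlaps Hand2 on the opposite strand, was the closest gene of the latter pair and of 5 regions in all.

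RefSeq lists a branchial arch enhancer of 1764 bp downstream of Hand2, and a listed region of 707 bp, chr8:57333778-57334484, lay whole inside it, 13.1 kb from the Hand2 start. The branchial arch and heart enhancer 96.6 kb upstream of Hand1 overlapped no listed region, and neither did a midbrain enhancer 53.2 kb downstream of Evx1. Over all 1015 mouse enhancers of this RefSeq annotation, 30.9% overlapped a region. The Hand2 window was otherwise uneven, with 7 of its 13 regions within 10 kb of the start and none centred in the outer 84.2 kb of the upstream side or over the 50.1 kb from 32.9 to 82.9 kb downstream. The noncoding gene 5033428I22Rik was the closest gene of 4 of the Hand2 regions.

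Over the 10 loci together, 42 regions were centred in promoters (25.9%, interval 19.8 to 33.2%), 23 in exons (14.2%, 9.65 to 20.4%), 35 in introns (21.6%, 16.0 to 28.6%) and 62 between genes (38.3%, 31.1 to 45.9%). In the whole list the shares were 21.0, 8.76, 35.1 and 35.2%. Tbx6 held 14 of the 42 promoter regions, and without its locus the promoter share was 19.6%, below that of the whole list. Of the 42 promoter regions, 40 were in promoters of other genes only. The median width was 401 bp, against 355 bp in the whole list. By class it was 490 bp for promoters, 308 bp for exons, 379 bp for introns and 390 bp between genes, beside 600, 383, 307 and 321 bp in the whole list. Promoter and exon regions at these loci were thus narrower by median than those of their class, and the others wider, and none of these differences was tested.

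The 11 regions that overlapped a member's gene body had a median GC content of 66.2% and a median CpG ratio, observed over expected, of 0.82. The other regions of the loci had 55.4% and 0.41, and the whole list 51.9% and 0.30. Of the 11, however, 10 were centred in promoters or exons of any gene, with medians of 66.4% and 0.82. The 55 other promoter and exon regions of the loci had 60.7% and 0.67, and those of the whole list 59.9% and 0.64, so the gap was smaller within like classes. It was not tested.

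Motif letters were set beside the whole list. TCF/LEF letters were in 36 of 162 regions (22.2%, interval 16.5 to 29.2%), against 13.7% of all regions. The share was 13.4% in the loci of the wider list of mesoderm and streak genes described below, which holds none of the members. This was close to that of all regions, and the share was 9.42, 13.3 and 15.2% at the neuroectoderm, endoderm and pluripotency loci. The 10 loci thus had a higher share than each of these lists, and the differences were not tested. In the 80 regions between the quartiles of width, 233 to 556 bp, the share was 23.8%, against 13.8% of all regions in that range. In the 22 regions closest to a member it was 18.2% (4 regions, 7.31 to 38.5%), and that interval includes the 13.7% of all regions. The rest of the 36 regions with TCF/LEF letters had another gene as their closest TSS. In a fixed window of 300 bases at the centre of all 162, the share was 16.7% (11.7 to 23.2%), against 10.5% of all regions in such a window. SOX letters were in 14.2% (9.65 to 20.4%), against 16.0%, and FOXH1 letters in 11.7% (7.64 to 17.6%), against 15.9%. In the 22 regions closest to a member both shares were 22.7% (10.1 to 43.4%), above the whole list, so the order depended on which regions were taken. The octamer was in 3 regions (1.85%, 0.632 to 5.30%), against 2.66%, and the T-box letters in 5 (3.09%, 1.33 to 7.02%), against 2.12%. None of the 22 regions whose closest TSS was a member held the octamer (0%, 0 to 14.9%), and that interval includes the 2.66% of the whole list. The 3 regions with the octamer were at Ypel3, 1700034J04Rik and Hoxa10, named after their values were seen. These shares were not tested against each other.

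**Figure D4:**
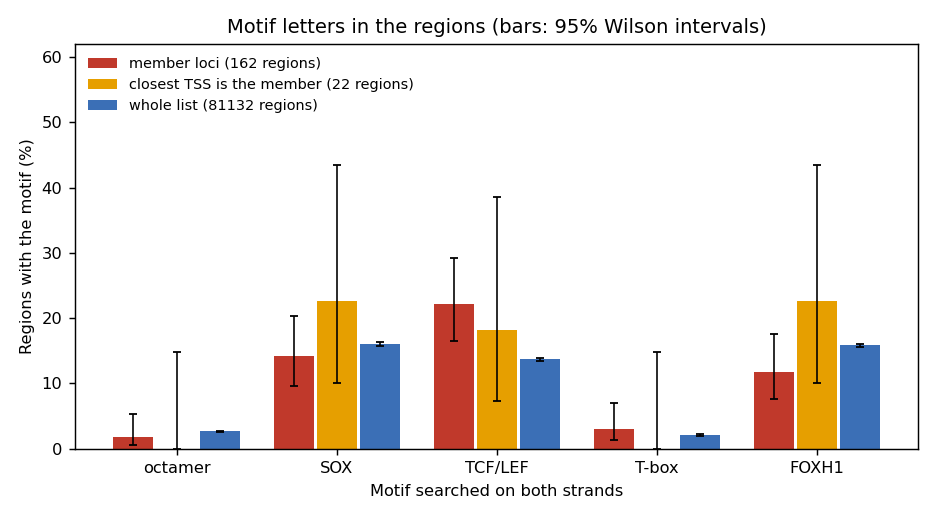
Share of regions (%) holding each motif at the 10 loci (red), in the regions whose closest TSS is the member (orange) and in the whole list (blue), with 95% Wilson intervals. At the loci the TCF/LEF share is 22.2% against 13.7% in the whole list (13.4% in the loci of the wider mesoderm and streak list, not drawn), and the intervals of the 22 closest regions are wide for all motifs.

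A wider list of 25 other mesoderm and streak genes held none of the 10 members and included ligands, receptors and further transcription factors. It gave a median of 16.0 regions per locus and 3.00 closest regions, or 5.00 with protein-coding start sites only. It shared 18 regions with the 10 loci. In this list 16 of 25 genes had a region in their own promoter and 17 of 25 a covered start site, beside 57.7% and 61.4% of protein-coding genes and 2 and 5 of the 10 members. The Nodal antagonist gene Lefty2 and the Nodal co-receptor gene Tdgf1 had 28 regions each and Fgf4 had 27, while the VEGF receptor gene Kdr had 4 and the LIM homeobox genes Isl1 and Lhx1 had 8 each.

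Lists of 10 genes each were set beside the members for other fates. The neuroectoderm genes had a median of 13.0 regions per locus and 4.50 closest regions, 7 of 10 had a region in their own promoter and 7 of 10 a covered start site. Hes5, Pou3f1 and Lhx2 had the most, with 22, 20 and 18. The endoderm genes had medians of 12.0 and 4.00, with 6 of 10 promoters and 7 of 10 starts. Hnf4a had 24 regions, Foxa2 16, and Foxa1 and Prdm1 14 each, while Cer1 had 3, Gata6 7 and Sox17 8. Beside these lists, the 10 mesoderm loci had the higher median count per locus. Their median of closest regions was lower with start sites of all genes (1.00), but with protein-coding start sites only it was 7.00, beside 6.50 in each of these lists.

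The pluripotency genes had a region in the gene's own promoter in 7 of 10, against 57.7% of protein-coding genes, and a covered start site in 8 of 10, against 61.4%. Since other lists gave similar counts, and the list of regions holds no expression values, these counts do not check the ES cell label. Their medians were 18.0 regions per locus and 5.00 closest regions, or 14.5 with protein-coding start sites only. Nanog, Pou5f1 and Tbx3 had 32, 24 and 23 regions, and Tfcp2l1, Klf4 and Sox2 had 10, 12 and 12. By median the members had about as many regions in their windows as the pluripotency genes, and fewer closest regions with either set of start sites (1.00 and 7.00). None of these differences between lists was tested.

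**Figure D5:**
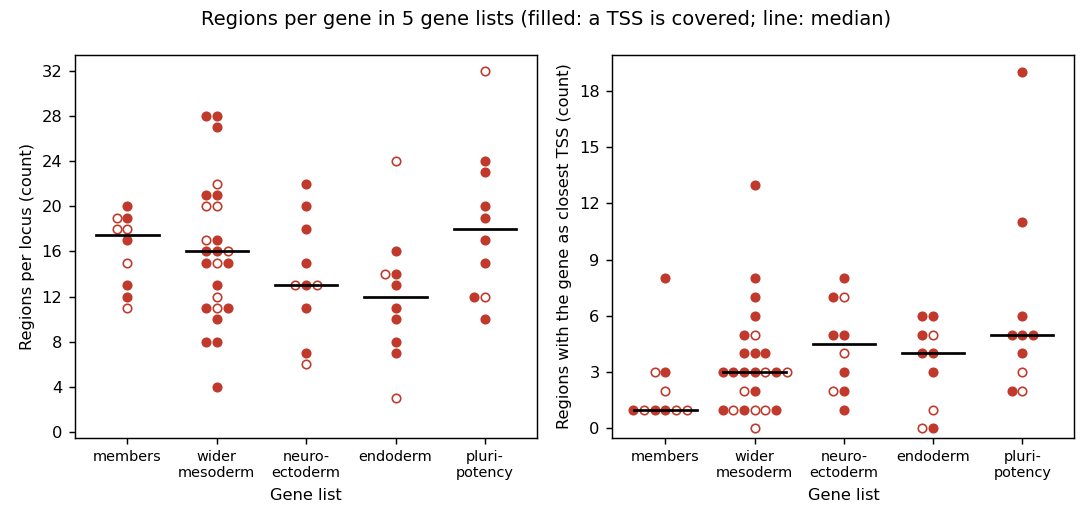
Regions per locus (left, count) and regions with the gene as closest TSS (right, count) for each gene of the 5 lists, filled where a TSS is covered, with the median as a line. All annotated genes give start sites on the right, where the members have a median of 1.00 and T has 8, beside a median of 17.5 regions per locus on the left.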

How the data were processed

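ATAC-seq was performed on 12 libraries of sorted SBROS cells, 3 per group. Per the methods and the submitters' processing notes, the authors aligned reads to mm10 with STAR (2.5.3a), kept unique alignments, removed duplicates with Picard, identified peaks per library with MACS2 (2.1.1.20160309), merged them over all libraries and discarded those overlapping peaks of a ChIP input. A shift for Tn5 insertion is not given in the sources used here. The deposited list holds coordinates only, so depth cannot be read from it and groups were not compared. The 4 ChIP samples were not used here.

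Regions were assigned by their centre to promoter, exon, intron or intergenic sequence, in that order, with GENCODE M21. Sequences, repeat masking and functional elements came from RefSeq GRCm38.p6. Scripts used Python (3.11.15), numpy (2.4.6), pandas (2.3.3), scipy (1.17.1), pysam (0.24.0) and matplotlib (3.10.9), and were tested on simulated data. The members and lists were chosen with earlier results of these data known. All members were named, with the first 2 neighbours by closest regions per locus and those tied with them, genes overlapping a member, and the first and last 3 genes of each comparison list, except that the last 3 of the neuroectoderm list are not reported here. The RefSeq elements were added after the data were seen. No test was made.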

Additional observations from a re-analysis of the deposited data

How the results depend on the processing

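Of 107 alternative values over 23 results, 74 kept to the reported value, that is within 1.5 times for counts or within its 95% interval for shares and the median width. The window set the counts: with 50 kb in place of 100 kb the loci held 92 regions, a median of 9.5 per locus and a promoter share of 18.5%, and with 200 kb 277 regions and a median of 28.0. When only protein-coding genes gave start sites, since noncoding neighbours then no longer took regions, a member was the closest TSS of 80 regions over the whole list, with a median of 7.0 per member. The count was planned, and the median was added after seeing the data. Members with a promoter region numbered 7 with 1 kb to both sides of the TSS, 10 with 5 kb and 5 when any base in the promoter counted, against 68.1, 75.4 and 66.5% of protein-coding genes. The promoter share was 42.0% with 1 kb and 59.3% with 5 kb to both sides, and 19.6% without the Tbx6 locus, which was left out after seeing the data. No share of the whole list is given for the wider promoters, so these rises are not a comparison with other regions. The median width was 460 bp without regions under 200 bp. Among the 22 regions closest to a member, the octamer and T-box shares were 0% (0 to 14.9%) and the SOX and FOXH1 shares 22.7% each (10.1 to 43.4%). The FOXH1 share was 5.56% in 300 bases at the centre, against 12.5% of all regions in such a window. For single loci, 14 of 60 alternatives moved the count, 8 down with 50 kb and 6 up with 200 kb. The alternatives for covered start sites, chosen after seeing the data, gave 4 or 5 genes. No paired analysis was possible because the list holds no value per library. Depth cannot be read from it either, and its part in the widths or in absent regions was not tested.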

Other observations

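Sequence marked as repeat made up more than 50% of 6 of the 162 regions (3.70%, 95% Wilson interval 1.71 to 7.84%), against 13.7% of the whole list. T, Mixl1, Tbx6, Msgn1, Hand1 and Evx1 had 1 such region each, and Eomes, Gsc, Mesp1 and Hand2 had 0. None of the 6 overlapped the gene body of a member.

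Regions under 200 bp made up 27 of the 162 (16.7%, 11.7 to 23.2%), against 19.8% of the whole list, and Mixl1 was the only locus without one. Regions over 1000 bp numbered 6 (3.70%, against 4.75%). Of these, 3 overlapped the gene bodies of T, Eomes and Mesp1, and 3 lay elsewhere in the loci of Mixl1, Tbx6 and Msgn1. These comparisons were made after the values were seen and were not tested.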
